A study of Cricetulus griseus with 24 samples.

Results

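The genes described here are the cadherins, protocadherins, claudins and connexins of the Chinese hamster, the membrane proteins by which cells hold on to, seal against and communicate with their neighbours. They were picked from the deposited count table by symbol alone: Cdh, Cldn, Gja, Gjb or Gjc followed by a number, and every symbol that starts with Pcdh. The rule found 73 of 28037 genes, of which 23 are cadherins, 17 protocadherins, 19 claudins and 14 connexins. In addition, 2 rows of the table that spell the word claudin out in full did not match the rule and were not used.

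Cadherins are calcium-dependent adhesion molecules that bind like molecules on the next cell, and the classical ones are tied to the actin cytoskeleton through p120, beta and alpha catenins. Protocadherins share the extracellular repeats but not the catenin-binding tail, and are known best from the nervous system. Claudins form the strands of tight junctions, and connexins form gap junction channels that let small molecules pass between cytoplasms. CHO cells for antibody production are usually grown in suspension, without attachment to a surface.

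Transcripts were counted by RNA-seq in 3 CHO (Chinese hamster ovary) cell lines, each sampled at exponential and at stationary growth phase. A0 is a line derived from DG44 that makes a recombinant antibody at a low rate. A1 is its progeny after gene amplification under rising methotrexate, and CHO-S is a separate CHO line whose library titles carry the unexplained abbreviation NDST. A0 and A1 share the antibody and selection transgenes, and the study's methods describe them in batch suspension culture, in serum-free medium with insulin. The methods do not name CHO-S, so they do not give its culture format or medium. Each line stands for 1 history of selection, so a difference between lines is a difference between these lines and not between classes of producer. The labels give 4 culture numbers for A0 and 3 for A1 and for CHO-S at each phase. They do not say that the numbers are independent cultures, so p-values measure the spread between these samples, which may be in part technical.

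At exponential phase every A0 culture number has 2 libraries, which were summed and counted as 1 culture, giving 20 cultures from 24 libraries. The labels do not say whether the second of each pair is a second library, extraction or culture, so the spread of exponential A0 rests on that reading. With the first libraries alone 11 members passed between A1 and A0 at that phase, against 10 with the sums. Reads counted on genes came to 23065838 to 26584337 per culture in A0 at exponential phase after summing, and to 6532373 to 14652646 elsewhere, except in CHO-S stationary culture 1, which had 1038026. Log2 differences that passed, bounds, count ratios and totals of members called against stationary CHO-S are therefore followed by their values without that culture. Means, intervals, counts by direction and counts of members without overlap include it. A0 cultures 1 and 2 stood apart from cultures 3 and 4 for several of these genes, a split that is also in the titles, where the second library of cultures 1 and 2 is marked RLT and that of cultures 3 and 4 Duplicate. Over the 10 or 11 best-counted members, the libraries of cultures 1 and 2 differed by a median of 1.28-fold and 1.135-fold. Those of cultures 3 and 4 differed by 1.07-fold and 1.064-fold. Any part of this in the split was not tested. Among markers of cell types, Vim and Fn1, which are mesenchymal, averaged 373.2 to 2708 CPM (counts scaled to a common library size, normalized with edgeR's TMM) over the groups. Of the 7 mesenchymal markers, 3 reached a mean of 1 CPM in A0 and 4 in A1 and in CHO-S, at both phases. The summed level of 7 epithelial markers differed between lines, with 22.9 to 26.0 CPM in exponential A1, 3.60 to 4.75 in A0 and 0.456 to 0.786 in CHO-S. Most of the sum in A1 was Grhl2, while the keratin genes Krt8 and Krt18 averaged at most 0.0597 CPM in any group. That of 5 blood cell markers differed between phases, with 2.38 to 3.40 CPM in exponential and 16.9 to 65.5 in stationary A0. It was nearly all Cd68, and the leukocyte gene Ptprc averaged at most 0.0569 CPM. RNA was measured in bulk, where fewer cells with a transcript and less of it per cell cannot be told apart.

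A gene was taken as expressed in a group when its mean reached 1 CPM. By that limit 20 of the 73 genes were expressed in at least 1 group: 6 cadherins, 5 protocadherins, 4 claudins and 5 connexins. The other 53 never reached it, and 18 of these had no count in any of the 24 libraries. Among the 53 was Cdh1, which encodes E-cadherin, the classical cadherin of epithelia. At exponential phase the 4 A0 cultures averaged 0.746 CPM ± 0.387 (SD) and the 3 A1 cultures 0.628 ± 0.518. In CHO-S it had 4 counts over the exponential cultures and none over the stationary ones, which allows up to 0.136 CPM for a count of 0. A gene left out of the expressed set is not shown to be silent, only to lie under 1 CPM.

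A0 expressed 18 of the genes at one phase or the other, A1 16 and CHO-S 14. Among those that reached 1 CPM in all 3 lines were Cdh9, Cdh24, Pcdh7, Pcdh18, Pcdhgc5, Cldn6, Cldn12, Cldn20, Gja1 and Gjb5. The limit was reached by Cdh2, Cdh7, Cdh13 and Pcdh15 in A0 and A1 but not in CHO-S, by Cldn15 and Cdh17 in CHO-S but not in A0 or A1, and by Pcdh12 in A0 but in neither of the other lines. Pcdh12 sat close to the limit, averaging 0.947 CPM ± 0.106 (SD, n = 3) in exponential CHO-S against 1.46 ± 0.423 (SD, n = 4) in stationary A0. Cldn20 was also at the limit throughout, with group means between 0.546 and 1.26 CPM. By family, 5 cadherins were expressed in A0, 5 in A1 and 3 in CHO-S, against 5, 4 and 3 protocadherins, 3, 3 and 4 claudins and 5, 4 and 4 connexins.

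**Figure D1:**
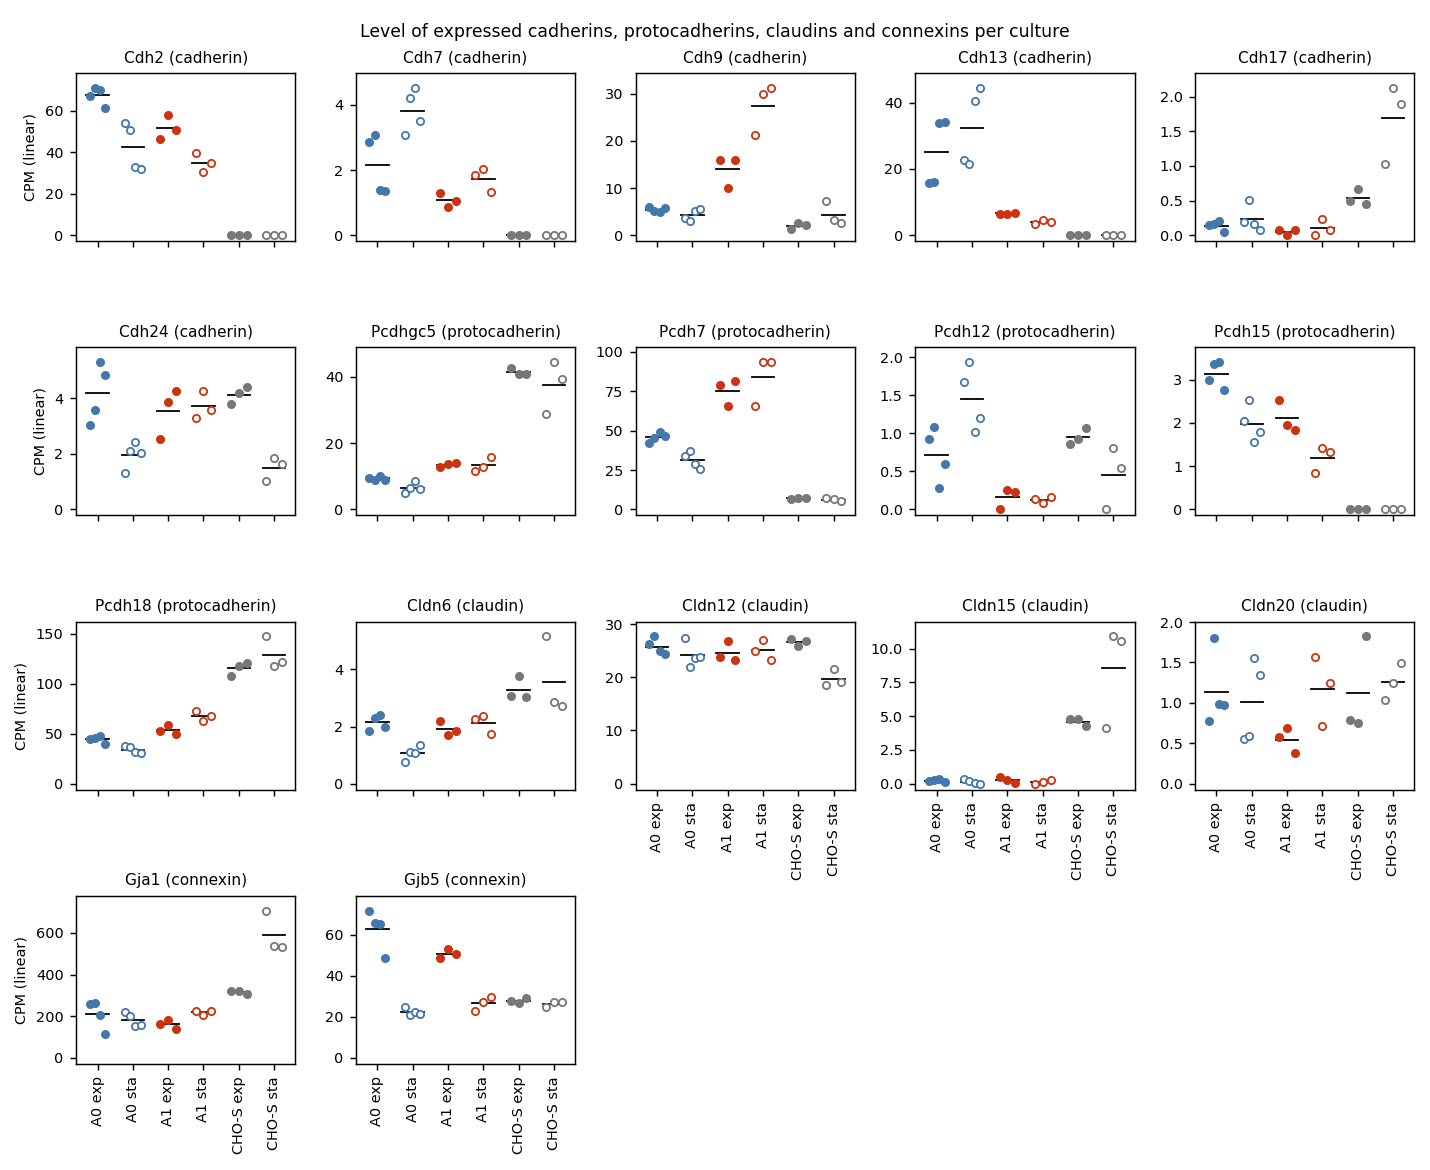
Level of the named expressed genes in every culture, in CPM on a linear axis that differs between panels, with filled points for exponential (exp) and open points for stationary phase (sta), A0 in blue, A1 in red and CHO-S in grey, and bars at the group mean. Cdh2 lies at 30.6 to 71.1 CPM in all A0 and A1 cultures and at 0 in the 6 CHO-S cultures, while Cldn12 lies between 18.6 and 27.7 CPM in all 20.

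The widest separation was between CHO-S and the antibody-producing lines, and it concerned cadherins. Cdh2 (N-cadherin, the classical cadherin of neural and mesenchymal cells) had no count in any of the 6 CHO-S cultures, whereas Cdh7, Cdh13 and Pcdh15 had at most 1 count in any of them. In the other direction, CHO-S had more Gja1, Pcdh18, Pcdhgc5, Cldn15 and Cdh17 than either line. A0 and A1 were compared with the same CHO-S libraries, so both sets of values share them.

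Cdh2 read 67.4, 71.1, 70.3 and 61.6 CPM in the 4 exponential A0 cultures and 46.6, 58.0 and 51.0 in the 3 of A1. At stationary phase it read 54.3, 50.6, 32.7 and 32.1 CPM in A0 and 39.7, 30.6 and 34.8 in A1. No CHO-S culture overlapped with these. Counted against the limit of 3 counts over a group, Cdh2 was at least 882-fold higher in A0 and at least 677-fold higher in A1 at exponential phase, and at least 311-fold and 257-fold higher at stationary phase, or 297-fold and 245-fold without the shallow CHO-S culture (adjusted p between 9.1e-19 and 2.2e-05 from edgeR).

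Cdh13 encodes T-cadherin, which has no cytoplasmic tail and is held in the membrane by a lipid anchor. It had 1 count over the exponential and 2 over the stationary CHO-S cultures. Summed counts per depth were 967 times higher in exponential A0 (95% counting interval 173 to 38200) and 259 times higher in exponential A1 (46 to 10300). At stationary phase the ratios were 363 (100 to 3000) in A0 and 45.4 (12.3 to 378) in A1, or 347 and 43.4 without the shallow culture. The intervals cover counting error only.

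Cdh7, a type II classical cadherin, and Pcdh15, the protocadherin of the tip links of inner-ear hair cells, had no count in CHO-S. Cdh7 was at least 28.3-fold higher in exponential A0 and at least 14-fold higher in exponential A1, and Pcdh15 at least 40.8-fold and 27.5-fold. At stationary phase the bounds were 28.1-fold and 12.8-fold for Cdh7 and 14.5-fold and 8.8-fold for Pcdh15. Without the shallow culture they were 26.8-fold and 12.2-fold, and 13.9-fold and 8.41-fold. All 8 passed the threshold with edgeR (adjusted p at most 0.0033).

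Pcdh7, a non-clustered protocadherin, was expressed in all 3 lines but lay lowest in CHO-S. It read 6.36, 7.44 and 7.59 CPM in exponential and 7.22, 6.60 and 5.15 in stationary CHO-S, against 25.6 to 49.3 CPM over the A0 cultures and 65.8 to 93.5 over those of A1. The log2 difference from CHO-S was 2.70 ± 0.12 (SE) in A0 and 3.40 ± 0.10 in A1 at exponential phase (adjusted p = 1.5e-10 and 2.1e-18, edgeR). Cdh9, another type II cadherin, was also lower in exponential CHO-S (1.43 to 2.51 CPM), by 1.41 ± 0.21 (SE) on the log2 scale against A0 and by 2.77 ± 0.21 against A1. At stationary phase only the difference from A1 passed for Cdh9 (3.05 ± 0.28, adjusted p = 0.00012, or 3.17 without the shallow culture). Stationary A0 averaged 4.34 CPM ± 1.22 (SD) and CHO-S 4.39 ± 2.47, with overlapping cultures. The CHO-S mean includes 7.22 CPM from 7 counts in the shallow culture, against 3.22 and 2.71 in the others. The log2 difference of A0 from CHO-S was 0.35 (adjusted p = 0.44, edgeR), and 0.13 to 0.55 with 1 culture left out.

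Among the genes higher in CHO-S, Pcdhgc5, a C-type member of the clustered gamma protocadherins, read 42.9, 40.9 and 40.9 CPM at exponential phase, against 8.87 to 10.2 in A0 and 12.8 to 14.03 in A1. Isoforms of the gamma cluster share their last exons, so reads of other isoforms may have been counted to it or dropped as ambiguous. Pcdh18, a non-clustered protocadherin, read 108, 118 and 121 CPM in exponential CHO-S against 39.3 to 47.4 in A0 and 49.9 to 58.3 in A1. Neither gene overlapped between CHO-S and the other lines at either phase. On the log2 scale A0 was lower than CHO-S by 2.14 ± 0.10 (SE) for Pcdhgc5 and by 1.37 ± 0.09 for Pcdh18, and A1 by 1.63 ± 0.08 and 1.11 ± 0.06 (adjusted p at most 1.5e-08, edgeR).

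Cldn15, a claudin that forms cation-selective pores in the gut, read 4.79, 4.76 and 4.25 CPM in exponential CHO-S and at most 0.491 CPM in any A0 or A1 culture. The log2 difference was -4.26 ± 0.28 (SE) in A0 and -4.05 ± 0.34 in A1 at exponential phase, and without A1 culture 1 the latter was -4.77. Cdh17, the liver-intestine cadherin, followed at a lower level, with 0.456 to 0.668 CPM in exponential and 1.03, 2.13 and 1.90 CPM in stationary CHO-S. The 1.03 CPM rests on 1 count in the shallow culture. Cdh17 was below 0.51 CPM in all A0 and A1 cultures, and at stationary phase it differed by -3.05 ± 0.50 (SE) in A0 and -3.84 ± 0.54 in A1 (adjusted p = 0.00085 and 0.001, edgeR). Without the shallow culture the values were -3.09 and -3.93. The first became -3.74 without A0 culture 2 and the second -4.88 without A1 culture 2.

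Gja1, the connexin of heart and fibroblasts and the most widely expressed of the family, was detected at high depth in every culture. It read 321, 320 and 304 CPM in exponential and 707, 536 and 532 in stationary CHO-S. In A0 it read 258, 265, 205 and 116 CPM at exponential and 220, 202, 151 and 160 at stationary phase, and in A1 160, 183 and 138 and then 223, 205 and 226. CHO-S lay above all of these at both phases. The difference was largest at stationary phase, with -1.71 ± 0.19 (SE) in A0 and -1.46 ± 0.17 in A1 on the log2 scale (adjusted p = 5.8e-05 and 0.00036, edgeR), or -1.53 and -1.32 without the shallow culture. At exponential phase it was -0.98 ± 0.06 in A1 and -0.57 ± 0.20 in A0, where the call was lost without A0 culture 3 (-0.55, adjusted p = 0.086) or without CHO-S culture 1, 2 or 3 (-0.56, -0.56 and -0.60, adjusted p = 0.078, 0.087 and 0.055), over a range of 0.00013 to 0.099 for all alternatives.

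Gjb5, a connexin best known from skin, ran the other way at exponential phase. It read 27.8, 26.8 and 29.0 CPM in exponential CHO-S, against 71.7, 65.8, 65.3 and 48.8 in A0 and 48.8, 52.8 and 50.8 in A1. All cultures of both lines lay above those of CHO-S. The log2 difference was 1.19 ± 0.12 (SE) in A0 and 0.86 ± 0.07 in A1 (adjusted p = 1.9e-06 and 1.1e-10, edgeR). At stationary phase neither passed, with means of 22.3, 26.6 and 26.3 CPM in A0, A1 and CHO-S.

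Cldn6, a claudin of early embryonic epithelia, was lower in A0 than in CHO-S at both phases (-0.60 ± 0.20 and -1.49 ± 0.32, SE) and lower in A1 at exponential phase (-0.78 ± 0.22). Without the shallow culture the stationary value for A0 was -1.35. The exponential call for A0 did not hold without CHO-S culture 2 (-0.50, adjusted p = 0.1 against 0.019, edgeR, with a range of 0.012 to 0.1 over the alternatives). Cldn12, a claudin without the usual PDZ-binding end, had group means of 19.7 to 26.6 CPM and passed in none of the 4 comparisons with CHO-S over all cultures. In stationary A1 it stood at 0.31, and at 0.27 without the shallow culture, where it passed (adjusted p = 0.044, edgeR, in a range of 0.044 to 0.41 over the alternatives). In exponential A0 against CHO-S it stood at -0.03 ± 0.09 (SE) on the log2 scale, and with A0 cultures 1 and 2 alone at 0.02.

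Of the lower-abundance genes, Pcdh12, an endothelial protocadherin, was below CHO-S in A1 at exponential phase (-2.48 ± 0.57, SE, adjusted p = 0.00066) and stationary phase (-2.30 ± 0.61, adjusted p = 0.02, edgeR). The stationary value was -2.42 without the shallow culture and did not pass without A1 culture 2 (-1.998, adjusted p = 0.078) or CHO-S culture 2 (-1.81, adjusted p = 0.18), over a range of 0.0045 to 0.18. Cldn20 passed in exponential A1 alone (-1.05 ± 0.44) and was lost without A1 culture 1 (-1.11) or 3 (-0.84) or CHO-S culture 3 (-0.51). Cdh24, a type II classical cadherin, passed in stationary A1 (1.11 ± 0.25) and was lost without CHO-S culture 2 (1.25) or 3 (1.05), but not without the shallow culture (1.065).

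Counted over all members, 22 of the 42 tested passed in A0 against CHO-S at exponential phase, beside 49.2% of all genes tested. Of these, 15 were higher in A0 (27.4% of all genes) and 7 lower (21.8%). In A1 against CHO-S, 21 of 36 passed, beside 57.2%, with 12 higher (30% of all genes) and 9 lower (27.1%). The shares are near those of all genes, and so are those of members whose cultures did not overlap, 24 of 42 in A0 (53.5% of all genes) and 23 of 36 in A1 (61.9%). At stationary phase 13 of 39 passed in A0, beside 40%, with 7 higher (20.7%) and 6 lower (19.3%), and 16 of 36 in A1, beside 34.8%, with 9 higher (18.2%) and 7 lower (16.6%). There the cultures did not overlap for 20 of 39 (45.1%) and 20 of 36 (48.8%). Without the shallow CHO-S culture 15 and 20 passed, and every expressed gene called with it was called without it. Of the genes called, 7 of the 22, 5 of the 21, 1 of the 13 and 3 of the 16 were under 1 CPM in every group.

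**Figure D2:**
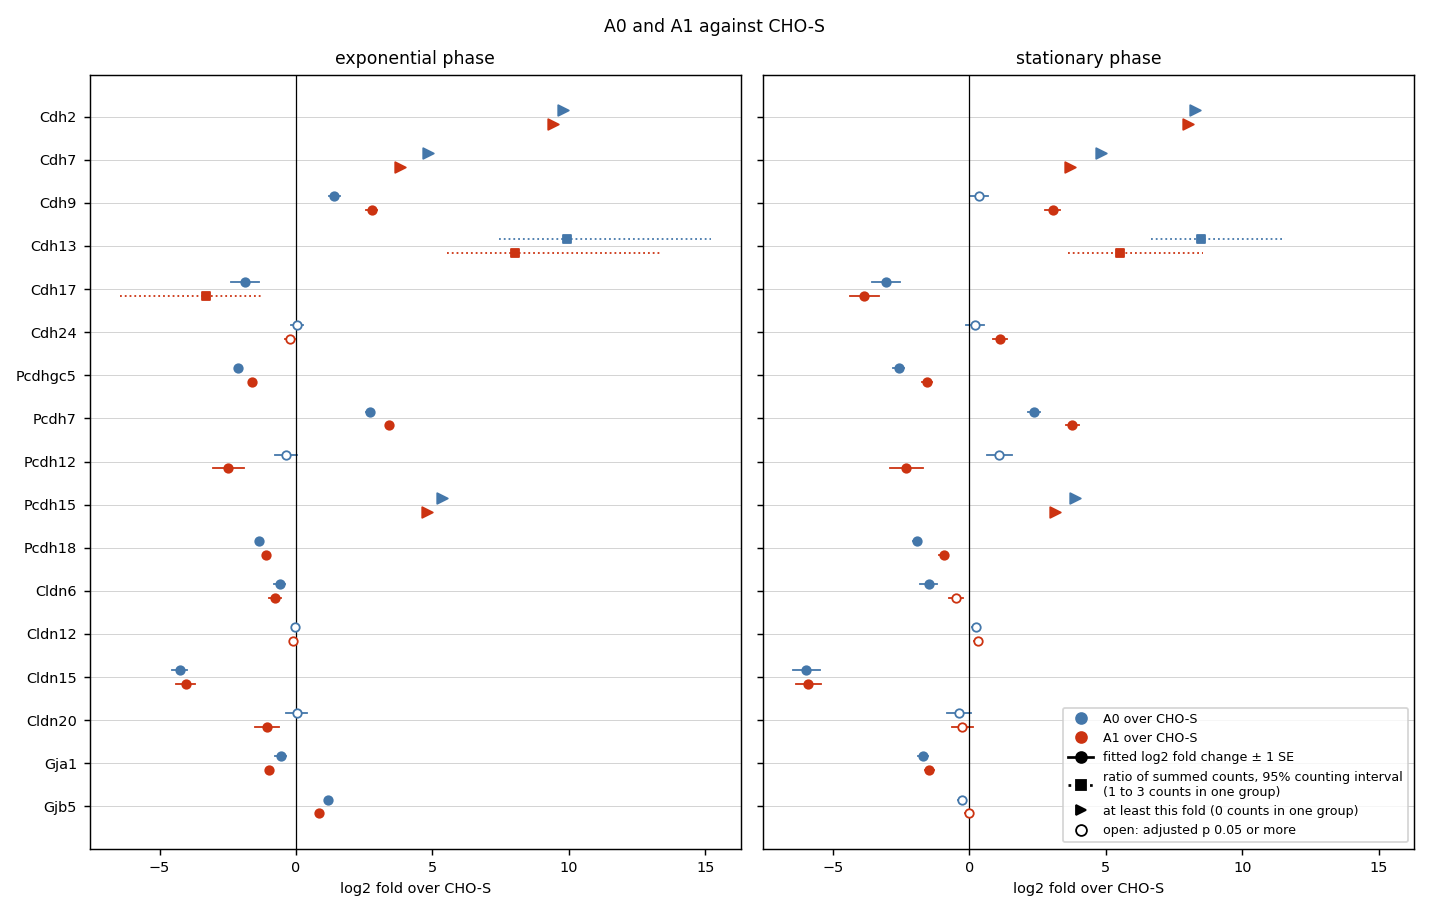
Log2 fold of the named expressed genes in A0 (blue) and A1 (red) over CHO-S at exponential (left) and stationary phase (right). Circles are fitted log2 fold changes with 1 SE, squares are ratios of summed counts with a 95% counting interval, arrowheads are lower bounds where CHO-S had 0 counts, and open symbols did not pass an adjusted p of 0.05; Cdh2, Cdh7, Cdh13 and Pcdh15 lie to the right of 0 in all 4 comparisons, and Cldn15, Cdh17, Pcdh18, Pcdhgc5 and Gja1 to the left.

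The comparison of A1 with A0 asks what differs between the amplified, higher-producing line and its parent. Within this gene group the cadherins split. Cdh13, Pcdh12 and, at stationary phase, Cdh7 were lower in A1, while Cdh9, Pcdh7 and Pcdhgc5 were higher, and the classical Cdh2 was lower in A1 at exponential phase. Of the claudins Cldn6 passed, at stationary phase.

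Cdh13 read 15.7, 16.02, 33.99 and 34.2 CPM in the exponential A0 cultures and 6.46, 6.57 and 6.79 in those of A1. At stationary phase it read 22.6, 21.5, 40.5 and 44.4 in A0 and 3.27, 4.64 and 4.08 in A1. All A1 cultures lay below all A0 cultures at both phases, although A0 cultures 3 and 4 were well above cultures 1 and 2. A1 was lower by 1.92 ± 0.27 (SE) on the log2 scale at exponential and by 2.99 ± 0.28 at stationary phase (adjusted p = 0.00014 and 2.3e-06, edgeR). Against A0 cultures 1 and 2 alone, the lower pair, the exponential value was -1.27 and passed. Against cultures 3 and 4, the higher pair, it was -2.37. The pairs were taken after these levels were seen.

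Cdh9 went the opposite way. It read 5.93, 5.11, 4.88 and 5.73 CPM in exponential A0 and 16.04, 10.1 and 15.9 in A1, then 3.72, 2.94, 5.15 and 5.55 in stationary A0 and 21.3, 29.9 and 31.2 in A1. The lines did not overlap at either phase, and the A1 cultures spread more widely than those of A0. The log2 difference was 1.37 ± 0.17 (SE) at exponential and 2.65 ± 0.19 at stationary phase (adjusted p = 3.8e-05 and 2.4e-07, edgeR), and it passed in all alternatives tried.

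Cdh2 was lower in exponential A1 by 0.38 ± 0.10 (SE) on the log2 scale (adjusted p = 0.0095, edgeR), with no overlap between cultures. It did not pass without A1 culture 1 (-0.32, adjusted p = 0.08) or A1 culture 3 (-0.37, adjusted p = 0.057), in a range of 0.0011 to 0.092 over the alternatives. At stationary phase the difference was -0.29 ± 0.17, which did not pass (adjusted p = 0.22, edgeR), and the cultures overlapped. There A0 was divided, with cultures 1 and 2 at 54.3 and 50.6 CPM and cultures 3 and 4 at 32.7 and 32.1. Against cultures 1 and 2 A1 stood at -0.61 and against cultures 3 and 4 at 0.09. These pairs were taken after their levels were seen, so no p-value is given for them. With 1 culture left out the adjusted p was 0.054 to 0.53 (edgeR). Cdh7 in A0 was divided too, at exponential phase, with 2.85 and 3.08 CPM in cultures 1 and 2 and 1.39 and 1.36 in cultures 3 and 4, against 1.31, 0.854 and 1.07 in A1. Its log2 difference was -1.01 ± 0.36 at exponential phase, just short of the threshold (adjusted p = 0.052, edgeR, in a range of 0.0012 to 0.43). At stationary phase, where A0 read 3.07 to 4.52 CPM and A1 1.33 to 2.04, it was -1.15 ± 0.25 (adjusted p = 0.0022). Cdh24 was higher in stationary A1 by 0.90 ± 0.24 (adjusted p = 0.009), a call that ended when A1 culture 2 was left out (0.79, adjusted p = 0.064, in a range of 0.0023 to 0.064).

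Of the protocadherins, Pcdh7 read 42.0, 45.3, 49.3 and 46.8 CPM in exponential A0 and 79.0, 65.8 and 81.5 in A1. At stationary phase it read 33.97, 37.2, 29.1 and 25.6 CPM in A0 and 66.0, 93.5 and 93.5 in A1. The lines were apart at both phases, by 0.72 ± 0.10 (SE) and 1.42 ± 0.14 on the log2 scale (adjusted p = 0.00011 and 3.3e-06, edgeR). Pcdhgc5 was also higher in A1, with means of 13.5 CPM ± 0.605 (SD) against 9.39 ± 0.634 at exponential phase (0.52 ± 0.12, SE) and 13.5 ± 2.08 against 6.56 ± 1.53 at stationary phase (1.03 ± 0.18). Pcdh18 was higher in stationary A1, where it read 73.1, 63.1 and 67.3 CPM against 37.4, 36.6, 31.96 and 30.9 in A0 (0.98 ± 0.09, adjusted p = 3.1e-06). At exponential phase its cultures did not overlap either, but the difference of 0.27 ± 0.10 did not pass (adjusted p = 0.055). Pcdh15 did not pass at either phase, with -0.57 ± 0.21 and -0.67 ± 0.30.

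Pcdh12 was lower in A1, where no culture had more than 3 counts, while those of A0 had 7 to 27. These counts are at unlike depth, since the exponential A0 cultures were summed from 2 libraries. In CPM Pcdh12 read 0.924, 1.08, 0.287 and 0.594 in the exponential A0 cultures and 0, 0.256 and 0.229 in those of A1. Its stationary levels were 1.68, 1.93, 1.01 and 1.20 CPM in A0 and 0.142, 0.0786 and 0.167 in A1, a log2 difference of -3.42 ± 0.52 (SE, adjusted p = 0.00018, edgeR). The exponential value of -2.12 ± 0.68 (adjusted p = 0.031) did not pass when A0 culture 1 (-1.98) or 2 (-1.87) was left out, or any A1 culture (-1.57, -2.57 and -2.48).

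Of the claudins, exponential Cldn12 averaged 25.8 CPM ± 1.49 (SD) over the A0 and 24.6 ± 1.91 over the A1 cultures, and at stationary phase 24.2 ± 2.26 and 25.1 ± 1.88. The log2 differences were -0.07 ± 0.10 (SE) and 0.04 ± 0.10. Cldn6 was higher in stationary A1, at 2.28, 2.36 and 1.75 CPM against 0.745, 1.09, 1.09 and 1.35 in A0 (0.95 ± 0.29, adjusted p = 0.02, edgeR). Leaving out A1 culture 1 (0.91, adjusted p = 0.056) or 2 (0.86, adjusted p = 0.096) ended the call, in a range of 0.0073 to 0.096. Cldn20 stood at -1.06 ± 0.41 (SE) at exponential phase and did not pass (adjusted p = 0.069).

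Of the connexins, Gjb5 passed at neither phase over all cultures (log2 difference -0.31 ± 0.12 and 0.25 ± 0.11, SE), nor did Gja1 (-0.40 ± 0.20 and 0.24 ± 0.11). Leaving out A0 culture 4 brought both past the threshold at exponential phase, Gjb5 at -0.42 and Gja1 at -0.60 (adjusted p = 0.0023 and 0.0027, edgeR). At stationary phase Gjb5 passed without A1 culture 1 (0.34, adjusted p = 0.041, edgeR). Gja1 passed there without A0 culture 1 (0.34, adjusted p = 0.019, edgeR). The value for Gja1 again depended on the A0 cultures: at exponential phase A1 stood at -0.71 against cultures 1 and 2 and at -0.01 against cultures 3 and 4.

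In all, 10 of 45 tested members passed at exponential phase, beside 25.7% of all genes, with 4 higher in A1 (12% of all genes) and 6 lower (13.8%). At stationary phase 12 of 43 passed, beside 33.7%, with 6 higher (16%) and 6 lower (17.7%). Cultures did not overlap for 16 of 45 members (34.3% of all genes) and 15 of 43 (39.9%), so in no case did the members stand far from all genes. The 10 include Cdh18 and Pcdh17, which were under 1 CPM in every group, and the 12 include Pcdh17 and Gja5. Pcdh17 had 2, 11, 24 and 8 counts in the exponential and 1, 1, 4 and 3 in the stationary A0 cultures and none in A1 or CHO-S. The median log2 difference over the tested members was -0.23 and 0.02, against -0.04 and 0.00 over all genes, and -0.20 and 0.03 with the genes at the count limit set to their bounds.

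**Figure D3:**
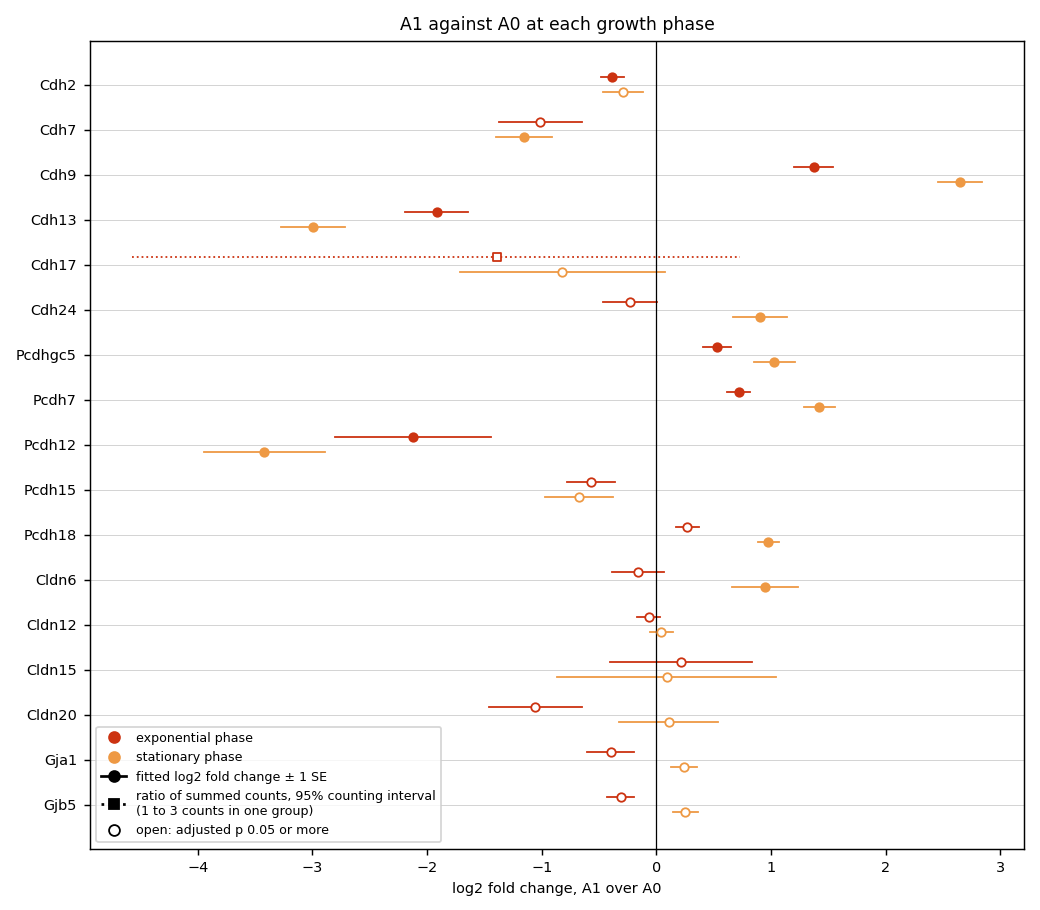
Fitted log2 fold change of A1 over A0 with 1 SE for the named expressed genes at exponential (red) and stationary phase (orange), the square with a dotted line being a ratio of summed counts with its 95% counting interval, and open symbols not past an adjusted p of 0.05. Cdh13 and Pcdh12 lie farthest to the left and Cdh9 farthest to the right, and the claudins lie close to 0 except Cldn6 at stationary phase and Cldn20 at exponential phase.

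Between growth phases, the connexin Gjb5 and the cadherin Cdh2 fell in both antibody-producing lines. In A0 most genes that moved fell at stationary phase, whereas in A1 3 rose and 4 fell. In CHO-S the calls depended on which cultures were in the fit, the shallow one among them.

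Gjb5 read 71.7, 65.8, 65.3 and 48.8 CPM in exponential A0 and 24.8, 20.8, 22.1 and 21.5 in stationary A0, then 48.8, 52.8 and 50.8 in exponential A1 and 22.8, 27.1 and 29.8 in stationary A1. The phases did not overlap in either line. It dropped by 1.51 ± 0.12 (SE) in A0 and by 0.90 ± 0.09 in A1 on the log2 scale (adjusted p = 1.3e-07 and 1.2e-09, edgeR). In CHO-S it did not pass, averaging 27.9 CPM ± 1.098 (SD) and 26.3 ± 1.35.

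In A1 Gja1 rose by 0.46 ± 0.07 (SE) on the log2 scale (adjusted p = 5e-06, edgeR, but 0.18 with all 6 groups in 1 fit) and in CHO-S by 0.91 ± 0.15 (adjusted p = 0.01), or by 0.77 without the shallow culture. The CHO-S call was lost without exponential culture 1, 2 or 3 (0.93, 0.93 and 0.90, adjusted p = 0.082, 0.089 and 0.082). It held without any single stationary culture, the shallow one included (lowest adjusted p = 6.2e-30, edgeR). In A0 it stood at -0.22 ± 0.20 with overlapping phases, where exponential culture 4, at 116 CPM, was the lowest of the 20 cultures. Leaving that culture out gave -0.41, which passed (adjusted p = 0.031, edgeR).

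Cdh2 fell in both lines, by 0.69 ± 0.15 (SE) in A0 and 0.56 ± 0.09 in A1 on the log2 scale (adjusted p = 0.0016 and 7.5e-06, edgeR). Cdh13 fell in A1 by 0.67 ± 0.18 (adjusted p = 0.0033), which did not pass with all 6 groups in 1 fit (-0.69, adjusted p = 0.25). In A0 it did not pass (0.36 ± 0.27, adjusted p = 0.32), but it was higher at stationary phase in each of the 4 culture numbers, and with the culture number as a block it rose by 0.38 (adjusted p = 0.0014). Cdh9 rose in A1 by 1.01 ± 0.14 (adjusted p = 5.3e-07) and averaged 5.41 and then 4.34 CPM in A0, with overlapping phases. Cdh24 fell in A0 by 1.09 ± 0.24 (adjusted p = 0.0018), with 3.04 to 5.29 CPM at exponential and 1.30 to 2.42 at stationary phase, and averaged 3.55 and 3.70 CPM in A1. Cdh7 rose in A0 by 0.80 ± 0.27 (adjusted p = 0.027). Without A0 exponential culture 3 or 4 or stationary culture 2 or 3 that call was lost (0.64, 0.65, 0.76 and 0.72, adjusted p = 0.087, 0.071, 0.066 and 0.079), in a range of 4.3e-05 to 0.33.

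Of the protocadherins in A0, 4 fell: Pcdh7 by 0.56 ± 0.12 (SE), Pcdh18 by 0.39 ± 0.10, Pcdhgc5 by 0.52 ± 0.16 and Pcdh15 by 0.68 ± 0.21 on the log2 scale (adjusted p = 0.0013, 0.007, 0.017 and 0.018, edgeR). Pcdhgc5 did not pass without exponential culture 3 (-0.48) or stationary culture 1 (-0.42), nor Pcdh15 without stationary culture 3 (-0.57). In A1 Pcdh18 rose by 0.35 ± 0.07 (adjusted p = 0.0003, but 0.061 with all 6 groups in 1 fit), while Pcdh7 averaged 75.4 and then 84.3 CPM and Pcdhgc5 13.5 at both phases. Pcdh12 rose in A0 by 0.98 ± 0.37 (adjusted p = 0.045) with overlapping phases. It was lost without exponential culture 3 (0.72) or 4 (0.91) or stationary culture 1 (0.90), 2 (0.81) or 4 (1.06).

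Among the claudins Cldn6 fell in A0 by 0.996 ± 0.25 (SE) on the log2 scale (adjusted p = 0.0043, edgeR), with 1.85 to 2.42 CPM at exponential and 0.745 to 1.35 at stationary phase. CHO-S had 2 claudins past the threshold, Cldn15 up by 1.16 ± 0.19 (adjusted p = 0.01) and Cldn12 down by 0.40 ± 0.10 (adjusted p = 0.044), besides Cdh17 up by 1.86 ± 0.31 and Cdh24 down by 1.26 ± 0.21 (both adjusted p = 0.011). Cldn15 read 4.13, 10.9 and 10.6 CPM in stationary CHO-S, the first in the shallow culture, where it rests on 4 counts. All 4 passed without that culture (1.23, -0.37, 1.91 and -1.22, adjusted p at most 0.00052), and none of the 4 passed without any other single CHO-S culture, exponential or stationary. The log2 values stayed between 1.03 and 1.23 for Cldn15, -0.48 and -0.36 for Cldn12, 1.71 and 2.03 for Cdh17 and -1.39 and -1.20 for Cdh24.

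Over all members, 15 of 47 tested passed in A0, beside 37.6% of all genes tested, with 3 higher at stationary phase (17.6% of all genes) and 12 lower (20%). Of the 15, Gja5 (higher), Cdh1 and Cdh5 (lower) were under 1 CPM in every group. In A1 7 of 37 passed, beside 33.4%, with 3 higher (15.6%) and 4 lower (17.8%), and in CHO-S 5 of 29, beside 13.3%, with 3 higher (6.81%) and 2 lower (6.48%). The phases did not overlap for 10 of 47 members in A0 (35.7% of all genes), 11 of 37 in A1 (43.1%) and 9 of 29 in CHO-S (36.4%). Without the shallow culture 8 passed in CHO-S. Without CHO-S exponential culture 1, 2 or 3 the count was 0, with 6 at an unadjusted p under 0.05 each time, and without stationary culture 2 or 3 it was 1. The median log2 change over tested members was -0.32 in A0 and 0.10 in A1, against 0.00 and 0.03 over all genes. Cd68, a lysosomal and macrophage gene used as a blood cell marker, rose with the stationary phase, averaging 2.94 CPM at exponential and 41.2 at stationary phase in A0, 2.96 and 9.90 in A1 and 3.68 and 32.7 in CHO-S. It was the one of 5 such markers to reach 1 CPM, and Ptprc, Cd3e and Itgam stayed at or below 0.128 CPM.

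**Figure D4:**
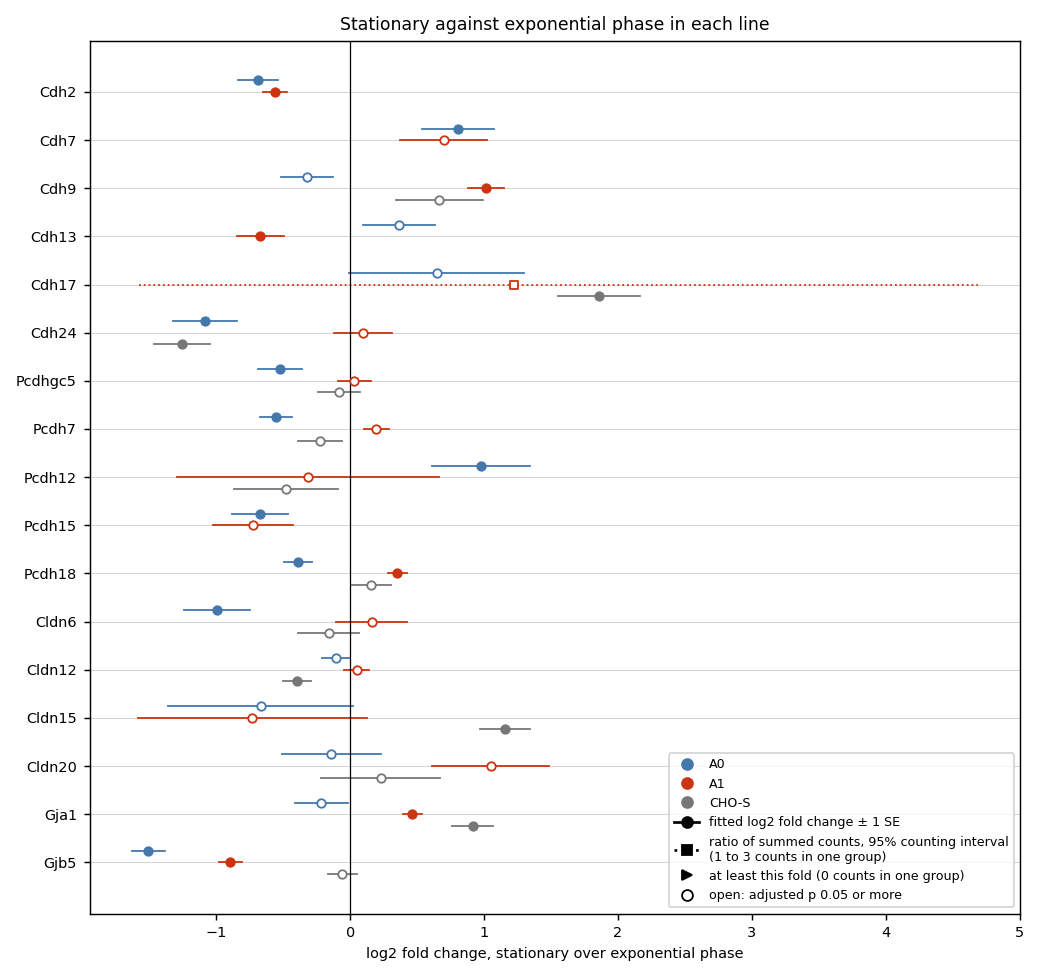
Log2 fold change of stationary over exponential phase with 1 SE for the named expressed genes in A0 (blue), A1 (red) and CHO-S (grey), with the square and dotted line a ratio of summed counts and its 95% counting interval, and open symbols not past an adjusted p of 0.05. Cdh2 and Gjb5 lie left of 0 in A0 and A1, while Pcdh18, Pcdh7, Cdh9 and Gja1 lie left of 0 in A0 and right of 0 in A1.

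Whether the difference between A1 and A0 changed with the phase was tested as an interaction of line and phase over the 4 groups. It passed for 6 of 49 tested members, beside 8.92% of all genes, and all 6 had a higher A1 to A0 ratio at stationary phase (5.03% of all genes). Among them were Cdh9 (1.28 ± 0.27, SE, on the log2 scale, adjusted p = 0.0035, edgeR), Cdh24 (1.14 ± 0.35, adjusted p = 0.04), Pcdh18 (0.71 ± 0.14, adjusted p = 0.0025), Pcdh7 (0.70 ± 0.18, adjusted p = 0.015) and Gjb5 (0.57 ± 0.17, adjusted p = 0.036). For Gjb5 this means that the fall was shallower in A1 than in A0. Cdh9 and Pcdh18 passed in all 14 fits that left out a culture, Pcdh7 in 12, Cdh24 in 5 and Gjb5 in 4. Pcdh7 was lost without A1 stationary culture 2 (0.63, adjusted p = 0.066) or 3 (0.62, adjusted p = 0.058). Cdh13, whose A1 to A0 ratio moved the other way, did not pass (-1.08 ± 0.43, adjusted p = 0.13).

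The intracellular partners of these molecules were read from lists of genes set by function. The main catenins were expressed in every line. Ctnnb1 (beta-catenin) averaged 378.1 to 564.8 CPM over the 6 groups, Ctnna1 (alpha-catenin) 279.7 to 634.1 and Ctnnd1 (p120-catenin) 122.6 to 226.8. CHO-S, with no Cdh2 count, thus had the highest group mean of all 3. Between A1 and A0, Ctnnd1 was higher in exponential A1 by 0.33 ± 0.09 (SE, adjusted p = 0.01, edgeR) and Ctnna1 in stationary A1 by 0.21 ± 0.06 (adjusted p = 0.017), while Ctnnb1 passed at neither phase (432.0 against 464.5 CPM, then 406.3 against 378.1). Of the 14 adherens junction partners, 11 were tested at each phase, and 3 were higher in A1 and none lower at exponential phase, against 3 higher and 2 lower at stationary phase. Of all genes tested, 12% were higher and 13.8% lower at exponential phase (25.7% in all), and 16% and 17.7% at stationary phase (33.7% in all). Of the list, Ctnna3 (an alpha-catenin of heart and testis) rose most at exponential phase (0.94 ± 0.14), ahead of Ctnnal1 (0.57 ± 0.10). At stationary phase Ctnna2 was lower in A1 (-1.75 ± 0.56), as was Vcl, which encodes vinculin (-0.47 ± 0.12), and Jup (plakoglobin) was higher (0.77 ± 0.22, at 3.28 against 1.89 CPM). Of these calls, Ctnnd1 ended without A1 culture 2 (0.31), Jup without A1 stationary culture 2 (0.73), Ctnna1 without A1 stationary culture 2 (0.20) or 3 (0.20), and Ctnna2 without A0 stationary culture 1 (-1.30) or A1 stationary culture 2 (-1.84) or 3 (-1.44).

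In the desmosome list, 8 genes were tested at exponential and 6 at stationary phase, with 1 higher and 1 lower in A1 each time, beside 25.7% and 33.7% of all genes called. These were Dsp, which encodes desmoplakin (-1.002 ± 0.28 and -1.01 ± 0.15, SE), and Pkp1, which encodes plakophilin (0.73 ± 0.19 and 1.09 ± 0.18). Of the tight junction partners, 3 of 13 tested were higher in exponential A1 and none lower, and at stationary phase 3 of 12 were higher and 1 lower. Without regard to direction this is about the share of all genes called (25.7% and 33.7%). By direction, 12% of all genes were higher and 13.8% lower at exponential phase, and 16% and 17.7% at stationary phase. The 3 higher partners were the same genes at both phases: Patj (0.78 ± 0.22 and 1.51 ± 0.25) and Pard6b (0.91 ± 0.13 and 0.95 ± 0.13), which act in epithelial polarity, and Cgn, which encodes cingulin (0.66 ± 0.19 and 0.97 ± 0.27). Pard3, which binds Pard6b, was lower at stationary phase by 0.36 ± 0.09. At exponential phase Dsp stood at -0.26 against A0 cultures 1 and 2, which did not pass, and at -1.50 against cultures 3 and 4, and it ended without A0 culture 3 (-0.72) or 4 (-0.86) or any A1 culture (-0.93, -1.05 and -1.03). Patj at that phase stood at 1.25 against A0 cultures 1 and 2 and at 0.41, not past the threshold, against cultures 3 and 4, and ended without A0 culture 2 (0.64) or A1 culture 2 (0.75) or 3 (0.69). Exponential Pkp1 ended without A1 culture 2 (0.70) or 3 (0.54), and Cgn without A1 culture 1 (0.64) or 3 (0.61), or 3 at stationary phase (0.86). The scaffold Tjp1 (ZO-1) stood at 201.9 to 265.0 CPM over the groups and did not pass between A1 and A0.

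The large cadherins were tested for 16 genes at exponential and 13 at stationary phase, and those that passed were lower in A1 (2 and 3), beside 13.8% and 17.7% of all genes lower there. They were Fat1, a regulator of actin and Hippo signalling (-0.49 ± 0.11 and -0.96 ± 0.11, SE), Celsr3, a planar polarity cadherin (-0.91 ± 0.27 and -0.64 ± 0.22), and at stationary phase Fat4 (-1.29 ± 0.21). Celsr3 did not pass at exponential phase without A1 culture 1, 2 or 3 (-0.85, -0.88 and -1.02), nor at stationary phase without A0 culture 1, 2 or 3 (-0.60, -0.65 and -0.60) or A1 culture 1 or 2 (-0.69 and -0.45). Of the pannexins, which form channels of a connexin-like shape, Panx1 was lower in stationary A1 (-0.70 ± 0.07, at 105.1 against 170.0 CPM). At exponential phase it averaged 99.9 and 97.2 CPM, and of 2 pannexins tested none passed with edgeR, with 0 at an unadjusted p under 0.05. Over all genes tested the median log2 difference was -0.04 at exponential and 0.00 at stationary phase, against 0.10 and 0.13 for the adherens junction list, -0.01 and -0.06 for the tight junction list and -0.17 and -0.02 for the large cadherins.

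Repressors of the E-cadherin gene were expressed in all lines, and which ones differed. Snai1 averaged 9.97 and 12.2 CPM in exponential A0 and A1 and 52.0 in exponential CHO-S. Twist1 averaged 22.1, 21.5 and 0 CPM in the same order, and Zeb1 87.0, 76.4 and 51.3, while Snai2 had no count in any group. Between A1 and A0 none of 5 tested passed at exponential phase with edgeR, with 0 at an unadjusted p under 0.05, and at stationary phase Snai1 was higher in A1 (1.12 ± 0.15, SE) and Twist1 and Zeb1 lower (-0.40 ± 0.13 and -0.29 ± 0.08, adjusted p at most 0.033, edgeR). Twist1 stood at -0.61 against A0 cultures 1 and 2 and at -0.15, not past the threshold, against cultures 3 and 4, and it did not pass without A0 culture 1 (-0.32) or 2 (-0.32) or any A1 culture (-0.38, -0.39 and -0.42). Markers of cell types also differed between A1 and A0. Of the mesenchymal markers, 2 of 6 tested were higher and 1 lower in exponential A1, beside 12% and 13.8% of all genes. At stationary phase 4 of 6 were higher, beside 16% of all genes. Over the alternatives Col3a1 stood at 4.44 to 6.17 on the log2 scale at exponential and 5.24 to 6.12 at stationary phase. Fn1 stood at 0.27 to 0.33 and then 1.02 to 1.57, and Vim at -0.27 to -0.22 and then 0.28 to 0.51. The exponential call held in 8 of 16 alternatives for Vim and in 13 of 16 for Fn1. Of the epithelial markers, 1 of 5 and 2 of 6 were higher in A1, beside 12% and 16% of all genes. Of the blood cell markers, 1 of 4 (Cd68) was lower in stationary A1, beside 17.7% of all genes. Grhl2, an epithelial transcription factor, averaged 22.4 CPM ± 2.05 (SD) over the exponential A1 and 1.93 ± 0.602 over the A0 cultures, and 18.2 ± 2.12 and 1.18 ± 0.557 at stationary phase (log2 difference 3.54 ± 0.19 and 3.89 ± 0.24, SE, adjusted p = 6e-09 and 5.3e-08, edgeR). Of the 7 epithelial markers in the table it and Epcam were the ones to reach 1 CPM. Any part of these markers in the differences above was not tested. Cdh1 was not past the threshold between A1 and A0 at either phase.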

How the data were processed

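Per the study's methods, the authors mapped the stranded mRNA libraries to the Chinese hamster genome with STAR (v. 2.5.4b) and counted reads per gene with HTSeq-count (v. 0.7.2). They deposited these as raw counts for 28037 genes in 24 libraries, with 5 summary lines that were left out of library sizes and tests here and held 31.8% to 49.8% of all reads. The strand setting of the counting was not given in the sources used here, so overlapping and antisense genes are uncertain. HTSeq-count drops reads that align to several places, so near-identical genes lose reads.

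The 2 libraries of each exponential A0 culture were summed. A gene entered a comparison when 2 or more libraries of its groups held a read and its values were not constant. The test was that of edgeR 4.0.16 in R 4.3.3 (TMM normalization, quasi-likelihood test, two-sided, groups compared only, no block), with Benjamini-Hochberg adjustment over all genes tested and a threshold of 0.05. The fit was tested on simulated counts with the same spread for all genes and with changes set in well-counted genes only. That test does not cover genes with few counts or the larger spread of the comparisons with stationary CHO-S. Levels are CPM from 1 TMM normalization over the 20 cultures. A count of 0 over a group was bounded with 3 counts. Every gene reaching 1 CPM in a group could be named; partner genes were named by the 3 largest changes past the threshold between A1 and A0 for each list and phase, with Ctnnb1, Ctnnd1, Ctnna1, Jup, Tjp1, Zeb1, Snai1 and Snai2 whatever their values, and the others were counted. Grhl2, Pard3, the markers given with values and the members under 1 CPM were named after their values were seen. Some genes are counted but not reported by name here. The genes and lists were chosen with earlier results of these data known.

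Culture numbers paired the samples by their correlated deviations only for A0 between phases (4 pairs, r = 0.198 to 0.444), and the blocked value is given there where it changes a call. Alternatives were DESeq2 1.42.0, RLE normalization, other gene filters, a replicate block, 1 fit of 6 groups, first A0 libraries only, each culture left out and, added after the data were seen, A0 cultures 1 and 2 or 3 and 4 alone. Depth is the number of counted reads per culture. Figures were drawn with matplotlib 3.10.9 in Python 3.11.15. Of the 73 gene identifiers, 71 are in the RefSeq table of another assembly, so no coordinates or sequences are given.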

Additional observations from a re-analysis of the deposited data

Results flagged for a closer look

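The difference between A1 and A0 changed with growth phase, by the test of the interaction of line and phase, for Pcdh18 (0.71 on the log2 scale), Cdh9 (1.28), Gjb5 (0.57), Cdh24 (1.14) and Pcdh7 (0.70). Of the 14 fits that left out a culture, Pcdh18 and Cdh9 passed in all. Pcdh7 passed in 12, but Cdh24 in only 5 and Gjb5 in only 4.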

How the results depend on the processing

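Over the 104 pairs of an expressed gene and a comparison that passed the threshold, no alternative turned the direction. Of their 1527 values under alternatives, 1375 stayed past the threshold and 152 did not, and 73 of the 104 pairs passed in all. Of the 152, 105 came from leaving out 1 culture, 12 and 7 from A0 cultures 3 and 4 or 1 and 2 only, 9 from DESeq2, 8 from 6 groups in 1 fit, 6 from the block and the others from the first A0 libraries, the gene filters and RLE. The count of members past the threshold moved by over 1.5 times with the culture number as a replicate block for A1 against A0 at exponential phase (16 against 10, where no pairing was found and r was -0.0697 to 0.0642) and for CHO-S between phases (0 against 5, with 5 at an unadjusted p under 0.05), with the filterByExpr filter for A1 against CHO-S at stationary phase (10 against 16), with 6 groups in 1 fit for A1 between phases (4 against 7) and with A0 cultures 3 and 4 only for A0 between phases (8 against 15). The block gave 11 to 22 members, or 8 and 9 for A1 between phases and the interaction, in the comparisons not named, and apart from Cdh13 it changed no call of an expressed gene in A0 between phases. With 1 culture left out the counts were 5 to 15 (A1 against A0, exponential), 7 to 11 (stationary), 19 to 22 and 12 to 15 (A0 against CHO-S), 20 to 22 and 13 to 20 (A1 against CHO-S), 9 to 14, 7 to 8 and 0 to 8 (between phases in A0, A1 and CHO-S) and 2 to 7 (interaction). The lowest counts came without A1 exponential culture 3 (5; 6 without culture 1 or 2), A1 stationary culture 2 (7, and 2 for the interaction), A1 stationary culture 3 (2 for the interaction, against 3 without A0 stationary culture 2 or A1 exponential culture 1) and A0 exponential culture 3 (9). The number of expressed genes was 20 to 21, with 18 in A0, 15 to 16 in A1 and 14 to 15 in CHO-S. Of the 1407 values of the 93 pairs that had not passed, 68 passed and 94 turned direction, none of the 94 past the threshold. Among the 94 were Cldn12 in A1 against A0 with first A0 libraries only (0.0564) and, at stationary phase, with 1 culture left out (-0.00952 to 0.103, below 0 without A1 culture 2), Cdh2 in stationary A1 against A0 cultures 3 and 4 (0.0906), and Cldn12 in exponential A0 cultures 1 and 2 against CHO-S (0.0228). Of 598 values of partner and marker genes called between A1 and A0, 532 stayed past the threshold, 66 did not and 0 reversed. The number of all genes called moved by over 1.5 times with 6 groups in 1 fit (A1 between phases 2469 against 6196, CHO-S between phases 4107 against 2308, interaction 973 against 1871), with the block (350 for CHO-S between phases, 5043 against 7606 for stationary A0 against CHO-S, 2978 for the interaction), with A0 cultures 1 and 2 only (4586 for the interaction) and without the shallow CHO-S culture (8269 between phases, 10451 against 6345 for A1). It fell between CHO-S phases without exponential culture 1, 2 or 3 (310, 0 and 282 with edgeR, with 3547, 3471 and 3533 at an unadjusted p under 0.05) or stationary culture 2 or 3 (337 and 574), for A1 against A0 at exponential phase without A1 culture 1, 2 or 3 (3422, 3396 and 3156 against 5154), for the interaction without A1 exponential culture 2 or 3 or stationary culture 2 (1221, 1164 and 1003) and for stationary A1 against CHO-S without A1 culture 2 or 3 or CHO-S culture 2 (4054, 4098 and 4051). The causes were not tested. Depth limits statements on genes under 1 CPM and on CHO-S at stationary phase.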
